A study of Mus musculus with 16 samples.

Results

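The genes described here encode the nuclear-encoded subunits of the oxidative phosphorylation machinery, complexes I to V of the mitochondrial inner membrane. They were taken by symbol from the embryonic stem (ES) cell count tables (names starting with Nduf followed by a, b, c, s or v and a digit, Sdha to Sdhd, Uqcr, Cox with a digit from 4 to 8, and Atp5), which gave 84 of 23420 genes. Of the 84, 80 had enough counts to be tested, among 14664 genes tested in all. Atp5s and Atp5sl carry the Atp5 stem but are not structural subunits of the synthase. They are counted only in the totals over all members and in the share of gene counts taken by complex V. Ndufa4 and its paralogue Ndufa4l2 are named after complex I but are placed with complex IV, where the NDUFA4 protein is known to reside.

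Complex I oxidises NADH, complex II oxidises succinate, complex III passes electrons to cytochrome c, complex IV hands them to oxygen, and complex V uses the proton gradient to make ATP. Complex II is built from nuclear genes alone, whereas the others also need core subunits encoded in mitochondrial DNA. ES cells in naive culture use both respiration and glycolysis, and several complex IV subunits exist as paralogues that are otherwise restricted to muscle, lung, testis or low oxygen.

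The study asked whether endogenous retroviruses act as enhancers in the male germline, and its ES cell experiment targeted the retroviral long terminal repeat family RLTR10B2. All 8 RNA-seq libraries came from the J1 ES cell line (129S4/SvJae background, passage 36, day 3), grown without feeders in a 2i and LIF medium, and all carried the transgene Tn(dCas9-VPR/RLTR10B2-gRNA-DsRed), a nuclease-dead Cas9 fused to an activation domain together with a guide for RLTR10B2 and a red fluorescent marker. The 4 groups of 2 libraries were control cells (no doxycycline, no A-MYB), Dox cells (1 µg/ml doxycycline), A-MYB cells (the germline transcription factor A-MYB, encoded by Mybl1, without doxycycline) and Dox + A-MYB cells. How A-MYB was delivered, whether an empty vector was used, and whether the cells were 1 clone are not given in the sources used here. Doxycycline is known to inhibit mitochondrial protein synthesis in mammalian cells. No group analysed here had the drug without the activator or with another guide, so the drug and the activator cannot be told apart in any Dox contrast. The active-chromatin mark H3K27ac was mapped in pachytene spermatocytes of adult C57BL/6J mice aged 8-12 weeks, with 2 libraries from wild-type males and 2 from A-myb repro9/repro9 mutants.

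Gene counts ran from 26995317 to 33771487 per ES library. The Dox + A-MYB libraries stood apart: they had counts in 17602 and 17554 genes against 16027 to 16512 in the other 6 libraries, 9.43% and 8.80% of reads in no gene against 7.28% to 8.34%, and lay at 80.71 and 80.86 on the first principal component (64.1% of the variance) against -48.4 to -9.73. The summed level of 10 ES cell markers, all of them detected, was 6996 to 7676 CPM (counts scaled to a common library size) in the other libraries and 4984 and 5364 CPM in the Dox + A-MYB libraries. Utf1 did not follow the sum, with 76.1 and 80.2 CPM in control cells and 97.7 and 88.6 CPM in Dox + A-MYB cells. Pou5f1 overlapped between A-MYB cells (1120 and 1286 CPM) and Dox + A-MYB cells (1145 and 1378 CPM). The remaining ES cell markers were lowest in the Dox + A-MYB libraries. The 6 fibroblast feeder markers summed to 20.9 to 22.6 CPM in control cells and 12.1 to 14.9 CPM in Dox cells. The sum was 14.0 to 14.2 CPM in A-MYB cells and about 8.5 CPM in Dox + A-MYB cells. It was mostly Pdgfrb, with 16.8 and 16.7 CPM in control cells and 5.23 and 6.23 CPM in Dox + A-MYB cells. Between these groups Thy1 and Col1a1 fell too, Col1a2 overlapped and Postn was near 0. Col3a1 went the other way (0 and 0.04 CPM against 1.05 and 0.30 CPM). Of 5 spermatocyte and spermatid markers 3 were at 0 in all libraries, and the sum ran from 1.79 to 2.94 CPM in control cells, over 5.47 to 8.03 CPM in Dox cells and 6.11 to 9.13 CPM in A-MYB cells, to 12.3 to 15.2 CPM in Dox + A-MYB cells. The part of these shifts in the results was not tested. Mybl1 rose by 1.38 ± 0.14 (log2, SE) with A-MYB alone (edgeR adjusted p = 1.2e-07) and by 0.79 ± 0.13 when A-MYB was added to Dox (adjusted p = 2.3e-05), in the direction the labels give. Dox alone raised it by 0.47 ± 0.15 (adjusted p = 0.017).

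With either treatment alone, oxidative phosphorylation genes were lower far more often than higher. Dox without A-MYB lowered 42 of the 80 tested genes and raised 1, at an edgeR adjusted p under 0.05. Over all 14664 genes, 14.3% were lower and 17.9% were higher in the same contrast. The median log2 fold change of the 80 was -0.22, a fall of 14.1%, beside a median of 0.03 over all genes, and both Dox libraries lay below both control libraries for 65 of the 80, against 30.7% of all genes. A-MYB without Dox lowered 47 and raised 0, against 15.2% lower and 19.5% higher over all genes. The median was -0.24 beside 0.00, and both A-MYB libraries lay below both control libraries for 66 genes, against 32.9% of all genes. At an unadjusted p under 0.05, 1 member was higher with A-MYB without Dox, and DESeq2's Wald test called 0.

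These single-treatment contrasts share the control libraries. Fitted without the Dox + A-MYB libraries, an alternative chosen after seeing the data, the counts of lower genes were 49 for Dox and 60 for A-MYB. The counts depended on single libraries. For Dox without A-MYB the number lower was 26 without control replicate 1 and 22 without Dox replicate 1, and the 1 higher gene was lost without control replicate 2 or without either Dox replicate. For A-MYB without Dox the number lower was 26 without control replicate 1 and 28 without A-MYB replicate 1. The members moved together between replicates too: control replicate 1 exceeded control replicate 2 for 63 of 80 genes, by a median of 0.075 on the log2 scale. A-MYB replicate 1 exceeded A-MYB replicate 2 for 9 of 80, with a median difference of -0.11, and Dox + A-MYB replicate 1 exceeded replicate 2 for 17 of 80, with a median difference of -0.13, the largest of the 4 groups. In Dox cells it was 35 of 80.

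When the second treatment was added, the members split. Dox given with A-MYB lowered 28 and raised 9 of 80, against 30.4% lower and 28.5% higher over all genes, with a median of -0.09 beside 0.01. A-MYB given with Dox lowered 25 and raised 2, against 28.4% lower and 26.8% higher over all genes, with a median of -0.07 beside 0.01. The lower counts are thus near the background share, while higher calls were fewer than the background share in both contrasts.

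Scaling mattered for these contrasts and less for the single treatments. With libraries scaled to total gene counts in place of TMM (trimmed mean of M values), the median over all genes was 0.22 for Dox with A-MYB and 0.20 for A-MYB with Dox. The members then had medians of 0.12 in both. For Dox with A-MYB 38 were higher and 10 lower, and for A-MYB with Dox 28 were higher and 10 lower. The shares of all genes called under that scaling are not given here, for these counts or for those of the complexes below. The members' medians thus changed sign with the scaling but lay below the median of all genes under either scaling. In the single-treatment contrasts the members' medians under that scaling were -0.18 and -0.22. Single libraries moved the higher counts: for Dox with A-MYB they were 3 without A-MYB replicate 1, 20 without Dox + A-MYB replicate 1 and 4 without Dox + A-MYB replicate 2. For A-MYB with Dox they were 0 without Dox replicate 2, 11 without Dox + A-MYB replicate 1 and 1 without Dox + A-MYB replicate 2.

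**Figure D1:**
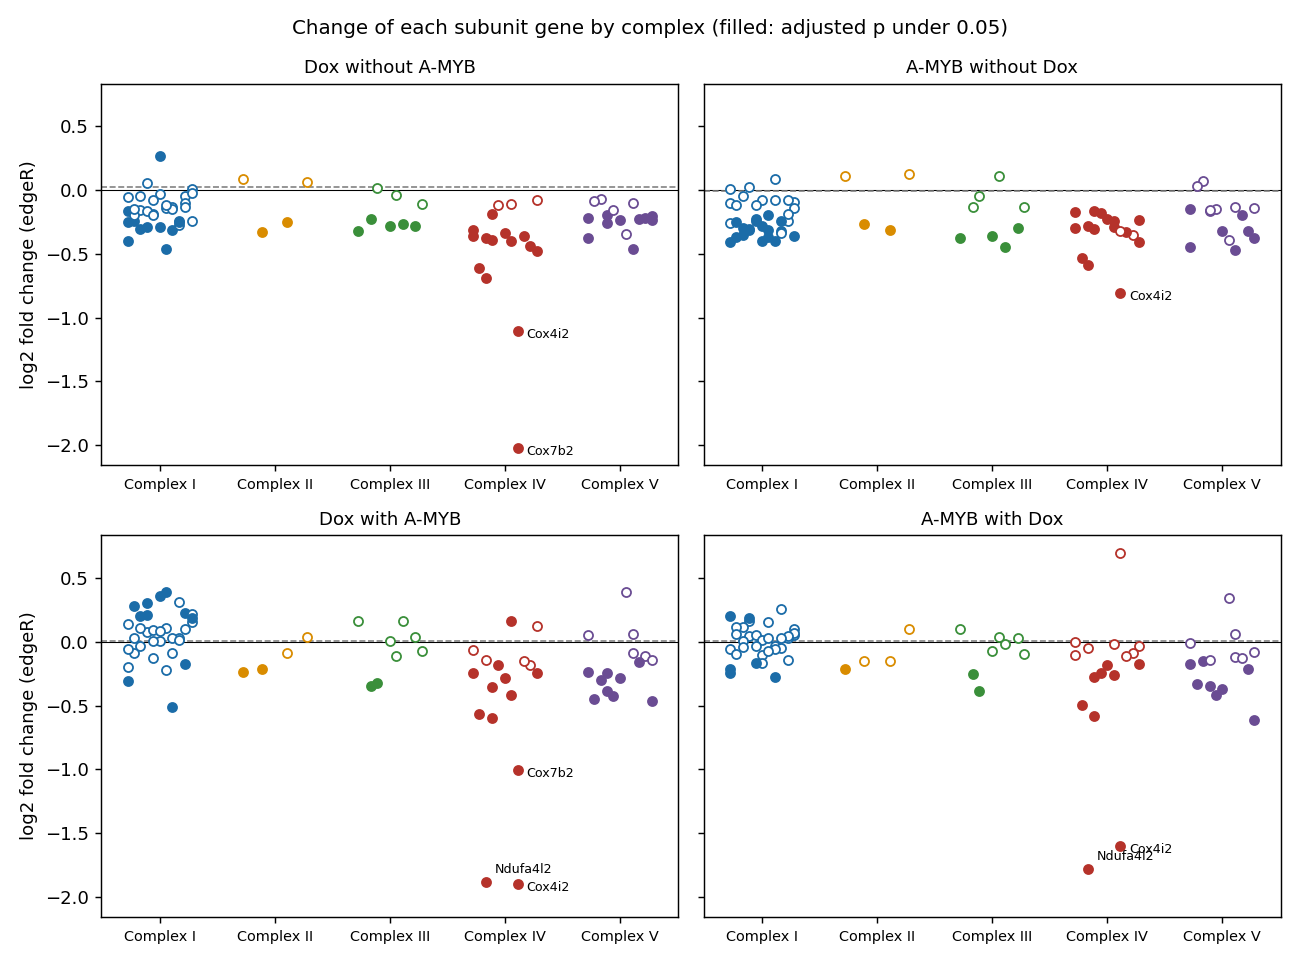
Log2 fold change (edgeR, TMM scaling; y axis) of each tested subunit gene, by complex (x axis), in 4 contrasts; filled points passed an adjusted p of 0.05 and the dashed line is the median of all genes. In the single-treatment contrasts nearly all points lay below 0, with medians of -0.22 and -0.24; in the contrasts with the other treatment present the complex I points were spread around 0 while most complex IV and V points lay below it, and with scaling to total gene counts the medians over all members turned positive (0.12 and 0.12).

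The whole set made up 1.59% and 1.54% of gene counts in control libraries. It made up 1.42% and 1.43% in Dox libraries, 1.36% and 1.45% in A-MYB libraries, and 1.46% and 1.56% in Dox + A-MYB libraries. The share was thus below both control values in the Dox and A-MYB libraries, and Dox + A-MYB replicate 2 lay between the control libraries. In these bulk samples, fewer cells that express a gene and less of its RNA per cell cannot be told apart. The genes of cytosolic ribosomal proteins, compared as another large set of abundant housekeeping transcripts, went the same way with either treatment alone. Of 83, 67 were lower with Dox alone and 67 with A-MYB alone, with medians of -0.25 and -0.27. Given with A-MYB, Dox lowered 50 of the 83 (60.2%) and raised 2, with a median of -0.18. Given with Dox, A-MYB lowered 53 (63.9%) and raised 1, with a median of -0.22. In those contrasts 35% and 31.2% of the oxidative phosphorylation genes were lower and 11.2% and 2.5% higher, with medians of -0.09 and -0.07. The ribosomal protein genes made up 8.03% to 8.39% of gene counts in control libraries and 6.67% to 7.44% in the other 6. Whether the oxidative phosphorylation genes moved apart from them was not tested.

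**Figure D2:**
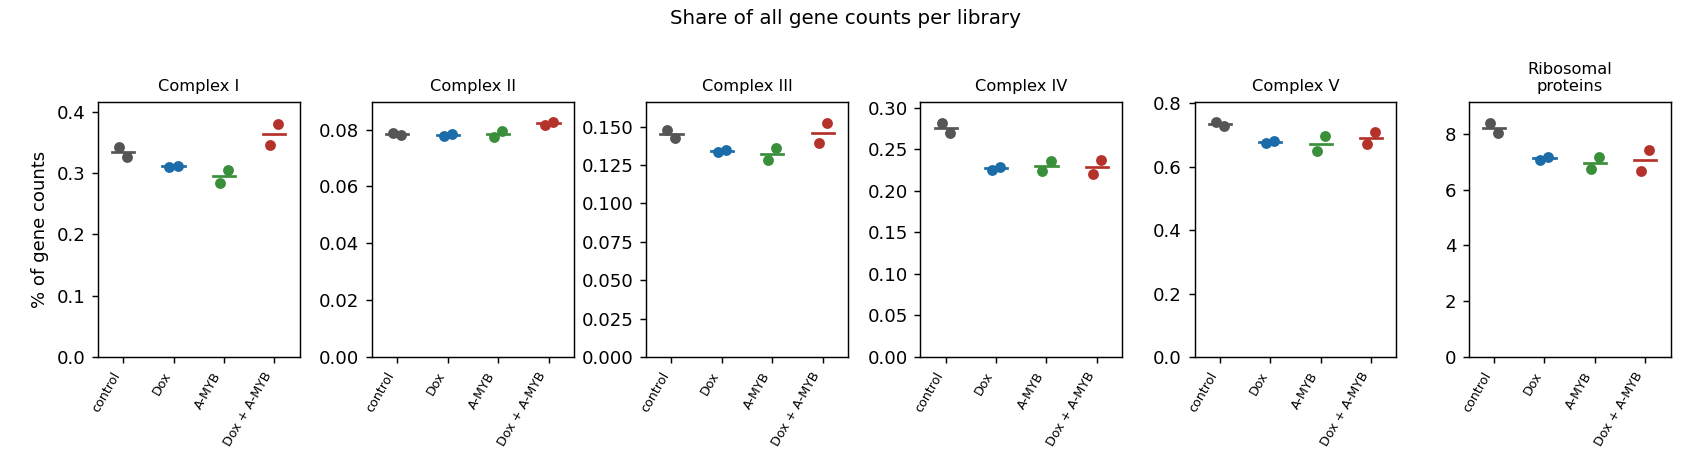
Share of all gene counts (y axis, %) taken by the subunit genes of each complex and by cytosolic ribosomal protein genes in each of the 8 libraries, with lines at group means (n = 2). The complex V share includes Atp5s and Atp5sl. Complex IV lies at 0.269% and 0.281% in control libraries and at 0.220% to 0.237% in the other 6, whereas complex I is highest in the Dox + A-MYB libraries (0.346% and 0.381%).

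Complex I, the NADH dehydrogenase, had lower genes with either treatment alone and calls in both directions when the other treatment was present. Of 34 tested genes, 11 were lower and 1 higher with Dox alone, and 18 were lower with A-MYB alone, with medians of -0.16 and -0.24. The lower calls were 32.4% and 52.9% of the complex, against 14.3% and 15.2% over all genes. With Dox given to A-MYB cells 8 were higher and 3 lower, with a median of 0.08. These were 23.5% and 8.82%, against 28.5% and 30.4% over all genes. With A-MYB given to Dox cells 2 were higher and 4 lower, with a median of 0.02. These were 5.88% and 11.8%, against 26.8% and 28.4% over all genes. In both contrasts calls in either direction were thus less frequent than over all genes. On total gene counts the calls became 25 higher and 1 lower (median 0.29), and 20 higher with a median of 0.21. The medians over all genes were then 0.22 and 0.20. The interaction (how far the Dox effect in A-MYB cells exceeded that in cells lacking A-MYB) was above 0 for 30 of 34 genes. The 7 tested core subunits, which carry the redox centres, had medians of -0.08 with Dox alone and -0.14 with A-MYB alone. The 27 accessory subunits, which stabilise the complex, had medians of -0.19 and -0.25. By module, the medians with A-MYB alone were -0.18 for the 9 genes of the NADH-oxidising N module, -0.19 for the 7 of the quinone-reducing Q module and -0.27 for the 18 of the proton-pumping P module.

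Ndufb3, an accessory subunit of the membrane arm, had 43.2 and 39.5 CPM in control cells, 29.5 and 30.6 CPM in Dox cells, 32.6 and 34.1 CPM in A-MYB cells, and 25.9 and 31.5 CPM in Dox + A-MYB cells. All treated libraries lay below both controls. It fell by 0.46 ± 0.10 (log2, SE) with Dox alone (edgeR adjusted p = 0.00063). Ndufa5, an accessory subunit of the matrix arm, fell by 0.40 ± 0.08 with A-MYB alone (adjusted p = 0.00056) and Ndufv3, the small flavoprotein-fraction subunit, by 0.40 ± 0.07 (adjusted p = 0.00017). Ndufb10, a membrane-arm subunit, fell by 0.40 ± 0.09 with A-MYB alone (adjusted p = 0.0013) and by 0.32 ± 0.09 with Dox alone (adjusted p = 0.0084), but the Dox call was lost without control replicate 1 (-0.23, adjusted p = 0.14). Ndufa1, which is needed for assembly of the membrane arm, fell by 0.40 ± 0.11 with Dox alone (adjusted p = 0.0083). That call was also lost without control replicate 1 (-0.29). The annotated span of Ndufa1 overlaps that of Rnf113a1, which fell by 0.45 ± 0.14 with Dox alone (edgeR adjusted p = 0.017). Reads shared between them were not measured.

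Ndufb6, another membrane-arm subunit, was the only member that passed as higher with Dox alone. Of the 80 tested members 6 had a change above 0 there, and for 3 both Dox libraries lay above both controls. Ndufb6 had 61.0 and 55.9 CPM in control cells and 71.5 and 69.4 CPM in Dox cells, and 52.1 and 59.0 CPM in A-MYB cells and 70.3 and 72.2 CPM in Dox + A-MYB cells. Both libraries with Dox lay above both without it in each setting. The rise was 0.27 ± 0.08 without A-MYB (adjusted p = 0.010) and 0.36 ± 0.08 with it (adjusted p = 0.00035). The first of these was lost without control replicate 2 (0.18, adjusted p = 0.18), without Dox replicate 1 (0.25, adjusted p = 0.092) and without Dox replicate 2 (0.26, adjusted p = 0.058).

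Ndufa13, a subunit also known as the cell-death regulator GRIM-19, had 157.5 and 142.4 CPM in control cells, 133.3 and 139.5 CPM in Dox cells, 107.7 and 124.5 CPM in A-MYB cells, and 137.3 and 166.8 CPM in Dox + A-MYB cells. The A-MYB libraries were the lowest, and with TMM scaling the Dox + A-MYB libraries overlapped the controls. Relative to total gene counts, both Dox + A-MYB libraries lay above both controls. Ndufa13 fell by 0.37 ± 0.09 with A-MYB alone (adjusted p = 0.0037) and rose by 0.39 ± 0.09 with Dox in A-MYB cells (adjusted p = 0.0011). Its annotated span overlaps that of Tssk6, whose change in the latter contrast was 0.52 ± 0.55 (adjusted p = 0.43). Ndufb11, an X-linked membrane-arm subunit, fell by 0.30 ± 0.08 with A-MYB alone (adjusted p = 0.0074) and rose by 0.30 ± 0.08 with Dox in A-MYB cells (adjusted p = 0.0035), a call lost without A-MYB replicate 1 (0.19, adjusted p = 0.096) and without Dox + A-MYB replicate 2 (0.18, adjusted p = 0.071). Its span overlaps that of Rbm10, which changed by 0.22 ± 0.06 there (adjusted p = 0.0033). The labels name a stranded library kit, but the strand setting of the counting is not given, so reads of overlapping genes may be shared. Of the 84 members, 27 have a span that overlaps another gene's in RefSeq.

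The core subunit Ndufs1, the largest iron-sulphur subunit of the N module, had 210.4 and 196.8 CPM in control cells, 214.0 and 208.7 CPM in Dox cells, 207.2 and 207.7 CPM in A-MYB cells, and 244.9 and 236.4 CPM in Dox + A-MYB cells. Only the combination lay above the rest. It rose by 0.21 ± 0.06 with Dox in A-MYB cells (adjusted p = 0.0026) and by 0.19 ± 0.06 with A-MYB in Dox cells (adjusted p = 0.0079), the latter lost without Dox replicate 2 (0.16, adjusted p = 0.10). Ndufa9, a Q-module subunit, rose by 0.20 ± 0.06 with A-MYB in Dox cells (adjusted p = 0.0089), which was lost without Dox replicate 2 (0.13, adjusted p = 0.21) and without Dox + A-MYB replicate 2 (0.16, adjusted p = 0.058). The neighbouring small subunits Ndufc1 and Ndufc2 went the other way. Ndufc2 had 52.5 and 51.4 CPM in control cells and 52.6 and 41.1 CPM in Dox cells. It had 52.5 and 57.7 CPM in A-MYB cells and 40.0 and 37.4 CPM in Dox + A-MYB cells. The last were the lowest 2 of the 8 with TMM scaling, but relative to total gene counts Dox replicate 2 was the lowest. With Dox in A-MYB cells Ndufc2 fell by 0.51 ± 0.10 (adjusted p = 7.8e-05) and Ndufc1 by 0.31 ± 0.08 (adjusted p = 0.0020), the latter lost when libraries were scaled to total gene counts (-0.10, adjusted p = 0.30). Ndufb5, a membrane-arm subunit, fell by 0.17 ± 0.07 with Dox in A-MYB cells (adjusted p = 0.048), but its sign turned on total gene counts (0.04, adjusted p = 0.65), and the call was lost with DESeq2's size factors and its Wald test (both -0.17, adjusted p = 0.051 and 0.070), and without either control replicate, Dox replicate 2, A-MYB replicate 2 or Dox + A-MYB replicate 2 (-0.17 to -0.08). Ndufb7, on the intermembrane-space side, fell by 0.36 ± 0.11 with A-MYB alone (adjusted p = 0.025) and rose by 0.28 ± 0.11 with Dox in A-MYB cells (adjusted p = 0.045), where the libraries of the compared groups overlapped (81.3 and 96.8 CPM in A-MYB cells, 95.4 and 121.7 CPM in Dox + A-MYB cells). Ndufs5, a subunit of the intermembrane-space side that every respiring cell needs, was listed at 0 in all 8 libraries, and so was not tested.

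Complex II, succinate dehydrogenase, had 4 members. With Dox alone 2 of 4 were lower, with A-MYB alone 2 of 4, with Dox in A-MYB cells 2 and with A-MYB in Dox cells 1; on total gene counts 1 of 4 was higher in each of the last 2 contrasts, with medians of 0.06 and 0.04 in place of -0.15 and -0.15. The iron-sulphur subunit Sdhb had 155.9 and 148.8 CPM in control cells, 128.5 and 127.3 CPM in Dox cells, 124.2 and 121.8 CPM in A-MYB cells, and 109.6 and 121.6 CPM in Dox + A-MYB cells, so that no treated library reached the controls. Sdhb fell by 0.25 ± 0.06 with Dox alone (adjusted p = 0.0039) and by 0.31 ± 0.06 with A-MYB alone (adjusted p = 0.00058). The membrane anchor Sdhc fell by 0.33 ± 0.07 with Dox alone (adjusted p = 0.0014) and by 0.27 ± 0.07 with A-MYB alone (adjusted p = 0.0068), the latter lost without control replicate 1 (-0.23, adjusted p = 0.082) and without A-MYB replicate 1 (-0.21, adjusted p = 0.077).

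The flavoprotein Sdha, the catalytic subunit, had another profile. It had 326.7 and 342.6 CPM in control cells, 351.4 and 360.8 CPM in Dox cells, 354.9 and 367.3 CPM in A-MYB cells, and 310.8 and 303.7 CPM in Dox + A-MYB cells. With TMM scaling the combination was the lowest group and did not overlap any other. Relative to total gene counts, both combination libraries lay above both control libraries. With Dox in A-MYB cells Sdha fell by 0.23 ± 0.06 (adjusted p = 0.00080), but by 0.02 on total gene counts (-0.02, adjusted p = 0.74). The other anchor, Sdhd, passed in none of the 4 treatment contrasts, with changes from 0.04 to 0.13.

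Complex III, the cytochrome bc1 complex, had 8 tested members, of which 5 were lower with Dox alone and 4 with A-MYB alone, with medians of -0.25 and -0.21. In the contrasts with the other treatment present 2 of 8 were lower in each, with medians of -0.03 and -0.04, whereas on total gene counts 5 and 2 were higher, with medians of 0.18 and 0.15. The small subunit Uqcr10 had 176.2 and 161.2 CPM in control cells and 133.2 and 136.9 CPM in Dox cells. It had 122.7 and 136.9 CPM in A-MYB cells and 133.5 and 157.0 CPM in Dox + A-MYB cells. With TMM scaling all treated libraries lay below both controls. Relative to total gene counts, Dox + A-MYB replicate 2 lay above both controls. Uqcr10 fell by 0.32 ± 0.07 with Dox alone (adjusted p = 0.0021) and by 0.38 ± 0.07 with A-MYB alone (adjusted p = 0.00041). Uqcr11, another small subunit, fell by 0.45 ± 0.09 with A-MYB alone (adjusted p = 0.0012) and Uqcrq, a ubiquinone-binding subunit, by 0.36 ± 0.07 (adjusted p = 0.00042). Uqcrh, the hinge protein, fell by 0.28 ± 0.10 with Dox alone (adjusted p = 0.045), a call lost without control replicate 1 (-0.22, adjusted p = 0.21), without Dox replicate 1 (-0.24, adjusted p = 0.18) and without Dox replicate 2 (-0.34, adjusted p = 0.053).

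The catalytic Rieske iron-sulphur subunit Uqcrfs1 had 134.6 and 130.6 CPM in control cells, 114.8 and 111.9 CPM in Dox cells, 118.2 and 123.4 CPM in A-MYB cells, and 91.9 and 98.3 CPM in Dox + A-MYB cells. It was lowest in the combination, without overlap. With Dox in A-MYB cells it fell by 0.35 ± 0.06 (adjusted p = 5.8e-05), and Uqcrb, the subunit next to the quinone site, fell by 0.32 ± 0.07 (adjusted p = 0.00033). Scaled to total gene counts these were -0.14 (adjusted p = 0.071) and -0.11 (adjusted p = 0.18). The core proteins Uqcrc1 and Uqcrc2 passed in none of the 4 contrasts.

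Complex IV, cytochrome c oxidase, had the lowest median of the 5 complexes in each of the 4 contrasts. Of 17 tested genes 14 were lower with Dox alone, 15 with A-MYB alone, 11 with Dox in A-MYB cells and 9 when A-MYB was added to Dox, and 1 was higher in any, Cox6a1 with Dox in A-MYB cells. That rise (0.16) was lost without either control replicate or either Dox replicate (0.15 to 0.16), without A-MYB replicate 1 (0.08, adjusted p = 0.39) and without Dox + A-MYB replicate 2 (0.07, adjusted p = 0.41). Medians were -0.37, -0.30, -0.24 and -0.17. Leaving out the tissue-restricted paralogues, the other 12 had medians of -0.35, -0.26, -0.21 and -0.14. These 12 had the lowest median only with either treatment alone. In the last 2 contrasts complex V lay lower, at -0.24 and -0.15. On total gene counts the complex had medians of -0.03 with Dox in A-MYB cells, with 3 higher and 5 lower, and of 0.02 with A-MYB in Dox cells, with 3 higher and 4 lower. Single isoform genes changed sign with that scaling. With Dox in A-MYB cells these were Cox4i1 (0.15), Cox6b1 (0.07), Cox6b2 (0.03), Cox7a2 (0.06) and Cox7a2l (0.03). With A-MYB in Dox cells they were Cox4i1 (0.19), Cox6a1 (0.18), Cox6b1 (0.14), Cox6b2 (0.11), Cox7a2 (0.08), Cox7b (0.09) and Cox8a (0.02).

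The largest changes of the whole set were in paralogues that are known to be restricted or inducible. Ndufa4l2, a paralogue of Ndufa4 known as a hypoxia-inducible gene that restrains complex I activity, had 113.0 and 115.1 CPM in control cells. It had 70.0 and 71.6 CPM in Dox cells and 74.9 and 76.8 CPM in A-MYB cells. In Dox + A-MYB cells it had 18.7 and 22.6 CPM. The 4 groups fell in steps, without overlap between control, single treatments and the combination. With Dox it fell by 0.69 ± 0.08 without A-MYB (adjusted p = 2.3e-07) and fell by 1.88 ± 0.08 with it (adjusted p = 1.1e-15). With A-MYB it fell by 0.59 ± 0.08 without Dox (adjusted p = 2.7e-06) and fell by 1.78 ± 0.08 with it (adjusted p = 4.3e-15). The ratio of its counts to those of Ndufa4 in the same library, which removes scaling, was 0.647 and 0.664 in control cells, 0.540 and 0.534 in Dox cells, 0.515 and 0.517 in A-MYB cells, and 0.168 and 0.207 in Dox + A-MYB cells.

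Ndufa4 itself fell by 0.40 ± 0.06 with Dox alone (adjusted p = 1.4e-05) and by 0.41 ± 0.06 with Dox in A-MYB cells (adjusted p = 2.0e-06). The annotated span of Ndufa4l2 overlaps that of Shmt2, a mitochondrial one-carbon enzyme, which fell by 0.46 ± 0.06 with Dox alone and by 1.04 ± 0.06 with Dox in A-MYB cells (adjusted p = 1.0e-06 and 8.2e-14). Reads shared between them were not measured.

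Cox4i2, the lung and low-oxygen paralogue of the regulatory subunit Cox4i1, was rarer but moved the same way. It had 11.9 and 9.17 CPM in control cells, 5.48 and 4.33 CPM in Dox cells, 6.83 and 5.28 CPM in A-MYB cells, and 1.37 and 1.87 CPM in Dox + A-MYB cells. The control libraries were the highest and the combination the lowest, without overlap. With Dox it fell by 1.10 ± 0.20 without A-MYB (adjusted p = 0.00015) and by 1.90 ± 0.23 with it (adjusted p = 1.4e-07). With A-MYB it fell by 0.81 ± 0.20 without Dox (adjusted p = 0.0023), lost without control replicate 1 (-0.63, adjusted p = 0.075), and by 1.60 ± 0.23 with Dox (adjusted p = 2.6e-06). Cox4i1 fell by 0.36 ± 0.06 with Dox alone (adjusted p = 0.00011) and by 0.30 ± 0.06 with A-MYB alone (adjusted p = 0.00066). The count ratio of Cox4i2 to Cox4i1 was 0.0206 and 0.0167 in control cells and 0.0034 and 0.0040 in Dox + A-MYB cells. The span of Cox4i2 overlaps that of Bcl2l1, which changed by -0.12 to -0.03 over the 4 contrasts, with an adjusted p of at least 0.31.

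Cox7a1, the heart and muscle paralogue of Cox7a2, had 26.4 and 26.6 CPM in control cells, 17.5 and 17.3 CPM in Dox cells, 18.1 and 18.5 CPM in A-MYB cells, and 11.6 and 13.2 CPM in Dox + A-MYB cells. Each treatment lowered it whether or not the other was present, by 0.61 ± 0.11 and 0.57 ± 0.11 for Dox, and by 0.53 ± 0.11 and 0.49 ± 0.11 for A-MYB (adjusted p from 9.2e-05 to 0.00049). The interaction was 0.04 ± 0.15 (adjusted p = 0.85). Cox7b2, a testis paralogue of Cox7b, was near the limit of detection, with 66 and 55 counts in control libraries, 24 and 10 in Dox libraries, 43 and 59 in A-MYB libraries, and 27 and 33 in Dox + A-MYB libraries. It fell by 2.02 ± 0.43 with Dox alone (adjusted p = 0.00076) and by 1.00 ± 0.40 with Dox in A-MYB cells (adjusted p = 0.036), the latter lost without A-MYB replicate 2 (-0.83, adjusted p = 0.17) and without either Dox + A-MYB replicate (-0.86 and -1.18, adjusted p = 0.15 and 0.057), on total gene counts (-0.79, adjusted p = 0.093) and with DESeq2's Wald test (adjusted p = 0.051).

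Cox6b2, the testis paralogue of Cox6b1, had 13.2 and 14.7 CPM in control cells and 10.1 and 10.5 CPM in Dox cells. It fell by 0.44 ± 0.14 with Dox alone (adjusted p = 0.018), a call lost without control replicate 2 (-0.39, adjusted p = 0.12) and without Dox replicate 1 (-0.41, adjusted p = 0.11). The heart and muscle genes Cox6a2 and Cox8b had no count and 1 count over the 8 libraries, and the testis gene Cox8c had 0 to 11 counts per library. These were not tested.

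**Figure D3:**
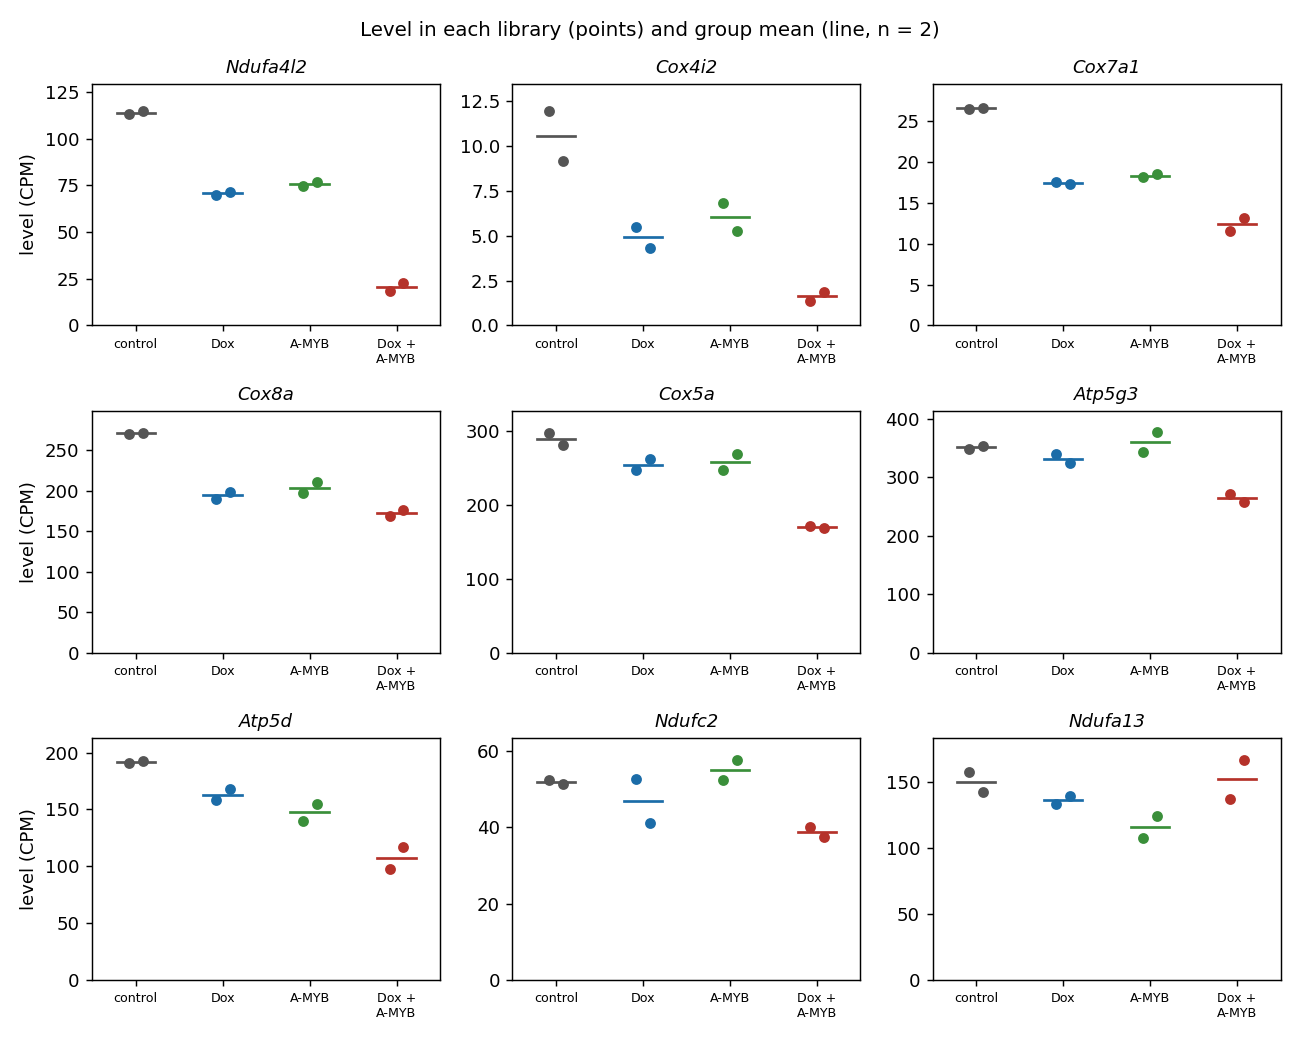
Level (CPM, y axis, starting at 0) of 9 subunit genes in each library of the 4 groups (x axis), with lines at the group means (n = 2). Ndufa4l2 and Cox4i2 fall in steps to the Dox + A-MYB group (18.7 and 22.6 CPM and 1.37 and 1.87 CPM), Cox8a is lower in all treated groups, Cox5a, Atp5g3 and Ndufc2 are lowest in the combination, and Ndufa13 is lowest in A-MYB cells.

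Among the ubiquitous complex IV subunits, Cox8a, the smallest, fell most with the single treatments. It had 269.8 and 271.1 CPM in control cells, 189.4 and 198.6 CPM in Dox cells, 197.2 and 210.2 CPM in A-MYB cells, and 168.4 and 175.9 CPM in Dox + A-MYB cells. All treated libraries lay below the controls. The falls were 0.48 ± 0.06 with Dox alone (adjusted p = 9.4e-07) and 0.41 ± 0.06 with A-MYB alone (adjusted p = 8.7e-06). Cox5a, which lies on the matrix side and binds regulators of the enzyme, fell mainly in the combination. It had 296.8 and 281.2 CPM in control cells, 246.7 and 262.2 CPM in Dox cells, 246.7 and 268.8 CPM in A-MYB cells, and 171.2 and 169.2 CPM in Dox + A-MYB cells. With Dox it fell by 0.18 ± 0.06 without A-MYB (adjusted p = 0.020) and by 0.60 ± 0.06 with it (adjusted p = 5.7e-09). Cox7a2 fell by 0.36 ± 0.07 with Dox alone and by 0.33 ± 0.07 with A-MYB alone (adjusted p = 0.00021 and 0.00048). Cox7a2l, which is known to link complexes III and IV into supercomplexes, fell by 0.24 ± 0.07 with A-MYB in Dox cells (adjusted p = 0.0030), but by 0.05 on total gene counts (-0.05, adjusted p = 0.51).

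Complex V, the ATP synthase, had 15 tested subunit genes, and 10 were lower with Dox alone, 8 with A-MYB alone, 9 with Dox in A-MYB cells and 8 when A-MYB was added to Dox. Medians were -0.22, -0.16, -0.24 and -0.15, and on total gene counts the last 2 were -0.03 and 0.04, with 4 higher and 4 lower in the third and 2 higher and 5 lower in the fourth. By part, the medians with Dox in A-MYB cells were -0.24 for the 5 genes of the catalytic F1 head, -0.23 for the 4 of the peripheral stalk and -0.17 for the 6 of the membrane-embedded Fo part. The catalytic beta subunit Atp5b, with 3266 and 3251 CPM in control cells and 2710 and 2885 CPM in Dox + A-MYB cells, passed in none of the 4 contrasts.

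Atp5d, the delta subunit of the central stalk, had 191.0 and 192.3 CPM in control cells, 157.9 and 168.1 CPM in Dox cells, 139.9 and 155.1 CPM in A-MYB cells, and 97.3 and 116.6 CPM in Dox + A-MYB cells. It fell in steps, and the combination did not overlap any other group. With A-MYB it fell by 0.38 ± 0.07 without Dox (adjusted p = 0.00037) and by 0.61 ± 0.07 with it (adjusted p = 3.3e-07). Atp5j, coupling factor 6 of the peripheral stalk, had 166.4 and 145.5 CPM in control cells, 139.4 and 141.3 CPM in Dox cells, 137.2 and 145.1 CPM in A-MYB cells, and 108.9 and 101.8 CPM in Dox + A-MYB cells. The combination lay below all others. With Dox in A-MYB cells it fell by 0.42 ± 0.07 (adjusted p = 9.5e-06). Its annotated span overlaps that of Gabpa, the DNA-binding subunit of the ETS-family factor GABP, a known activator of respiratory genes, and Gabpa fell by 0.62 ± 0.06 in the same contrast (adjusted p = 4.5e-09) but rose by 0.26 ± 0.06 with Dox alone (adjusted p = 0.0024).

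Atp5g1, Atp5g2 and Atp5g3 encode the same mature c subunit of the rotor ring, and their calls differed, although the differences between them were not tested. Atp5g3 had 349.4 and 353.5 CPM in control cells, 339.3 and 324.5 CPM in Dox cells, 343.1 and 377.3 CPM in A-MYB cells, and 270.7 and 257.1 CPM in Dox + A-MYB cells. Only the combination lay apart. It fell by 0.45 ± 0.06 with Dox in A-MYB cells (adjusted p = 4.2e-07) and changed by -0.08 ± 0.06 with Dox alone (adjusted p = 0.30). Its change with A-MYB alone, 0.04 ± 0.06 (adjusted p = 0.68), had either sign (-0.0007 without control replicate 1 and -0.06 without A-MYB replicate 2). Atp5g2 fell by 0.32 ± 0.07 with A-MYB alone (adjusted p = 0.00064) and by 0.37 ± 0.07 with A-MYB in Dox cells (adjusted p = 5.7e-05). Atp5g1 fell by 0.32 ± 0.06 with A-MYB alone (adjusted p = 0.00032) and by 0.22 ± 0.06 with Dox alone (adjusted p = 0.0094), the latter lost without control replicate 2 (-0.21, adjusted p = 0.062) and without Dox replicate 1 (-0.21, adjusted p = 0.095). The count ratio of Atp5g3 to Atp5g1 was 1.90 and 1.85 in control cells, 2.12 and 2.00 in Dox cells, 2.37 and 2.42 in A-MYB cells, and 2.02 and 1.77 in Dox + A-MYB cells, so it was highest in the A-MYB cells and overlapped between control and combination.

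Atp5k, the e subunit that holds synthase dimers together, had 101.3 and 82.6 CPM in control cells, 63.8 and 70.0 CPM in Dox cells, 68.6 and 64.7 CPM in A-MYB cells, and 61.3 and 78.3 CPM in Dox + A-MYB cells. It fell by 0.46 ± 0.11 with Dox alone (adjusted p = 0.0075) and by 0.47 ± 0.11 with A-MYB alone (adjusted p = 0.0064). Both calls were lost without control replicate 1 (-0.33 and -0.34, adjusted p = 0.064 and 0.050), the replicate with the higher level, and the Dox call also without Dox replicate 1 (-0.40, adjusted p = 0.057). Atp5j2, the f subunit, fell by 0.38 ± 0.07 with Dox alone (adjusted p = 0.00044) and by 0.45 ± 0.07 with A-MYB alone (adjusted p = 7.1e-05). Atp5l, the g subunit of the membrane part, fell by 0.25 ± 0.07 with Dox alone (adjusted p = 0.0052), lost without control replicate 1 (-0.24, adjusted p = 0.058). Atp5f1, the b subunit of the peripheral stalk, had 402.5 and 376.9 CPM in control cells and 372.6 and 368.8 CPM in Dox cells. It had 400.1 and 420.3 CPM in A-MYB cells and 340.9 and 327.0 CPM in Dox + A-MYB cells. The last were the lowest 2 with TMM scaling, but not relative to total gene counts. Atp5f1 fell by 0.30 ± 0.06 with Dox in A-MYB cells (adjusted p = 7.6e-05). Atp5e, the epsilon subunit of the central stalk, passed in none of the 4 treatment contrasts. Of the genes that share only the stem, Atp5s passed in no contrast, and Atp5sl, which was later placed among complex I assembly factors as DMAC2, fell by 0.38 ± 0.09 with A-MYB in Dox cells (adjusted p = 0.00065), lost on total gene counts (-0.18, adjusted p = 0.071).

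The promoters of genes that moved in different ways are shown to set their letters beside the changes. RefSeq windows of 250 bases before to 50 after the start (GRCm38.p6) were held for 69 of the 84 members, 75 windows in all. Capitals mark matches on either strand to motifs of factors known for respiratory genes: NRF1 (GCGCANGCG), the ETS motif bound by GABP (CCGGAAG), YY1 (AANATGGCG) and the hypoxia-inducible factors (ACGTG). Cox8a, on chr19:7217567-7217866 (minus strand), fell with each treatment alone. Atp5j, on chr16:84834927-84835226 (minus strand), fell in the combination. A second RefSeq start of Atp5j, with its window on chr16:84835576-84835875, holds none of these 4 motifs. Atp5k, on chr5:108434350-108434649 (minus strand), fell with each treatment alone, and Ndufb6, on chr4:40279372-40279671 (minus strand), rose with Dox. Cox5a, on chr9:57520982-57521281 (plus strand), fell most in the combination.
Cox8a: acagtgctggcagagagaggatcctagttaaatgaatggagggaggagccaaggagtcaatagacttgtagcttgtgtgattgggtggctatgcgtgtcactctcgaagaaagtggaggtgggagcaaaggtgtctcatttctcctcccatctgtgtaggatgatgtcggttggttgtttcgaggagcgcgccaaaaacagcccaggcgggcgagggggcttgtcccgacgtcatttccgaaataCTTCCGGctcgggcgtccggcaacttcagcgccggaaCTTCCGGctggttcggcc
Atp5j: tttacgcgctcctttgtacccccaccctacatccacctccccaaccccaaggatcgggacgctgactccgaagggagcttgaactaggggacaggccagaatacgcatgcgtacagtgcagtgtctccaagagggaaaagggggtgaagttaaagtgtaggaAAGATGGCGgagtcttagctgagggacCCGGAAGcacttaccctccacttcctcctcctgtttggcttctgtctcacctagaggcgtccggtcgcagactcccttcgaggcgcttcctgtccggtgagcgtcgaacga
Atp5k: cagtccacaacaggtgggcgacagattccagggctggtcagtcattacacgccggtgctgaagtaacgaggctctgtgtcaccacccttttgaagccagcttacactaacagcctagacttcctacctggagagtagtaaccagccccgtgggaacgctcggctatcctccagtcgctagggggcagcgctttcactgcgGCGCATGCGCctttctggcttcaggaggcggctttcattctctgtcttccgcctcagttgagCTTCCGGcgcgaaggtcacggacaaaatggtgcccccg
Ndufb6: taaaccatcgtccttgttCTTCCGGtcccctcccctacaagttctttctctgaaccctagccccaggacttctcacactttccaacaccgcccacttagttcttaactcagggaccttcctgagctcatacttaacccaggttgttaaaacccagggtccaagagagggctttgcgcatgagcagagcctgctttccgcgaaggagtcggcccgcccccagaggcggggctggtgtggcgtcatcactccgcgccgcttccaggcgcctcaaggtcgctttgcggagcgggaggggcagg
Cox5a: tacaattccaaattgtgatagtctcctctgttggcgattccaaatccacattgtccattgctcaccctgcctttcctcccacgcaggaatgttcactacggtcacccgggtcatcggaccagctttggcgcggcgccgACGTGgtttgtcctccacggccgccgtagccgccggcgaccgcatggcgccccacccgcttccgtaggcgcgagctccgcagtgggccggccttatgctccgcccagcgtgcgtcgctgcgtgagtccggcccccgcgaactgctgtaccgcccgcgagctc
The capitals show 2 ETS matches in Cox8a, 1 ETS and 1 YY1 match in Atp5j, 1 NRF1 match that reads on both strands and 1 ETS match in Atp5k, 1 ETS match in Ndufb6 and 1 hypoxia-factor match in Cox5a. An ETS match thus stood in windows of genes that fell and of 1 that rose.

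Over the 75 member windows, 28.0% held the NRF1 motif, against 8.58% of 21263 windows of protein-coding genes. The ETS motif stood in 21.3% against 11.6%, the YY1 motif in 16.0% against 3.12% and the hypoxia-factor motif in 28.0% against 20.9%. A MYB motif (AACNGNC, not marked above), the kind of site A-MYB binds, stood in 28.0% against 32.2%. The median GC content of the windows was 57.3% and 56.3%. A match describes the letters only and does not show binding.

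The difference between Dox effects with and without A-MYB was tested directly as an interaction, and it was positive more often than negative among the members. Of 80, 23 were higher and 9 lower, against 16.4% higher and 24.5% lower over all genes, with a median of 0.16 beside 0.00. By complex, 14 of 34 in complex I were higher and 1 lower, 3 and 1 of 8 in complex III, 3 and 3 of 17 in complex IV, and 3 and 3 of 15 in complex V, while 1 of 4 in complex II was lower. The Dox contrasts share no libraries with each other. Of 42 members lower with Dox alone, 18 were also lower with Dox in A-MYB cells, and 24 did not pass there. Over all genes, 64% of the 2091 lower with Dox alone were also lower with Dox in A-MYB cells. With total gene counts 44 were higher and 2 lower, with a median of 0.33 beside 0.16 over all genes. DESeq2's size factors or its Wald test gave 5 lower. Without 1 library the number higher was 9 (control replicate 1), 10 (Dox replicate 1), 11 (A-MYB replicate 1), 36 (Dox + A-MYB replicate 1) or 15 (Dox + A-MYB replicate 2), and the number lower was 4 without control replicate 2 and 5 without Dox replicate 1.

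Members with a negative interaction included Ndufa4l2, at -1.19 ± 0.11 (adjusted p = 1.7e-08), Cox5a, at -0.41 ± 0.08 (adjusted p = 0.00036), and Atp5g3, at -0.37 ± 0.08 (adjusted p = 0.00096). For Atp5g3 it was -0.20 on total gene counts (adjusted p = 0.054). Members with a positive one included Uqcr10, at 0.48 ± 0.11 (adjusted p = 0.00083), Atp5j2, at 0.44 ± 0.10 (adjusted p = 0.0019), and Ndufa13, at 0.53 ± 0.12 (adjusted p = 0.0028). The first 3 were lower in the combination than in any other group. Uqcr10 and Atp5j2 were lower with Dox alone, while in A-MYB cells their Dox effect missed the threshold.

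**Figure D4:**
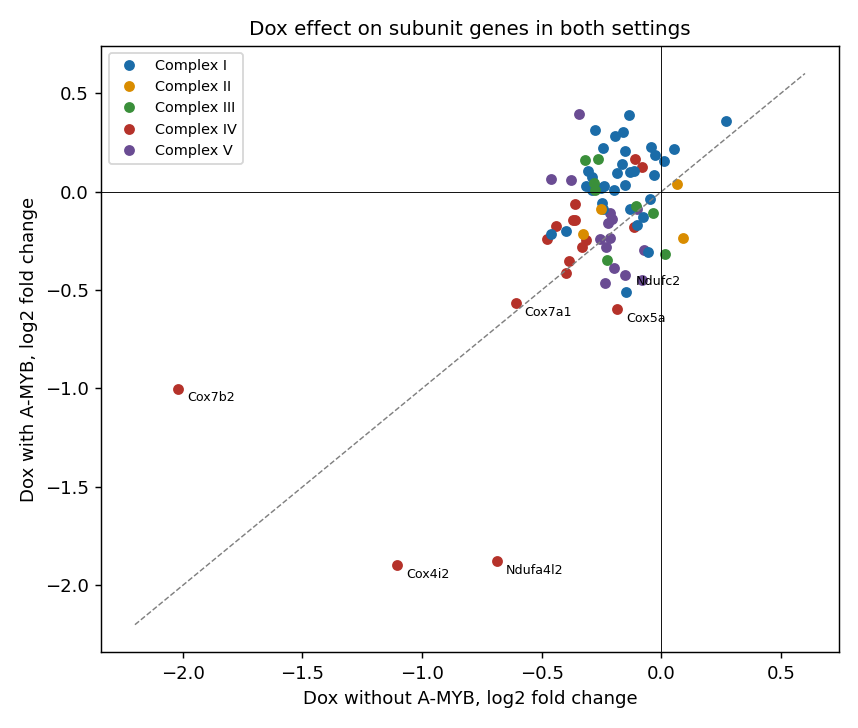
Log2 fold change with Dox in cells without A-MYB (x axis) against that in cells with A-MYB (y axis) for each tested subunit gene, coloured by complex; the dashed line marks equal change, and the libraries of the axes do not overlap. Most complex I points lie above the line, and Ndufa4l2 (-0.69 and -1.88), Cox4i2 (-1.10 and -1.90) and Cox5a (-0.18 and -0.60) lie below it; on total gene counts the y values are higher by about the shift of all genes.

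Ordered by group mean, the control cells had the highest level for 64 of the 80 genes and the lowest for 2, against 28.8% and 31.4% of all tested genes. Dox + A-MYB cells had the lowest for 43 and the highest for 9 (36.6% and 39.6% of all tested genes). A-MYB cells had the lowest for 28 and the highest for 6 (18.8% and 18.2%). Dox cells had the lowest for 7 and the highest for 1 (13.1% and 13.5%). The order moved with the scaling. On total gene counts the control cells had the highest level for 42 of the 80 (21.9% of all tested genes). Dox + A-MYB cells then had the lowest for 15 (22.9%) and the highest for 31 (54.4%). A-MYB cells were lowest most often, for 40 (23.4%), and Dox cells were lowest for 21 (14.5%).

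Genes that the symbol rule left out were followed in lists. Of 7 other components (the acyl carrier Ndufab1, cytochrome c genes and the synthase inhibitor among them) 4 were lower with Dox alone, 4 with A-MYB alone and 4 with Dox in A-MYB cells, where 2 were higher. Over all genes 14.3%, 15.2% and 30.4% were lower in these contrasts, and 28.5% were higher in the last. Somatic cytochrome c, Cycs, had mean levels of 128.8 CPM in control cells and 86.2 CPM in Dox + A-MYB cells, and it fell by 0.36 ± 0.08 with Dox alone (adjusted p = 0.0012) and by 0.32 ± 0.08 with Dox in A-MYB cells (adjusted p = 0.0011). Ndufab1 fell by 0.35 ± 0.07 in the latter contrast (adjusted p = 0.00018). The inhibitor Atpif1 fell by 0.41 ± 0.09 with A-MYB alone (adjusted p = 0.0021). 2010107E04Rik, the synthase-associated small protein gene, was lower in all 4 contrasts, by 0.24 to 0.29. None of the 13 genes encoded in mitochondrial DNA was analysed here.

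Assembly factors were called in both directions. Over all genes 17.9% were higher and 14.3% lower with Dox alone, and 28.5% and 30.4% with Dox in A-MYB cells. With A-MYB the shares were 19.5% and 15.2% alone, and 26.8% and 28.4% in Dox cells. For complex I 2 of 13 were higher and 1 lower with Dox alone, and 6 were higher and 3 lower with Dox in A-MYB cells. Foxred1 rose by 0.61 ± 0.07 in the latter (adjusted p = 1.3e-07), Timmdc1 by 0.62 ± 0.09 (adjusted p = 1.1e-06) and Ndufaf6 by 0.72 ± 0.10 (adjusted p = 1.4e-06), while Ndufaf4 fell by 0.36 ± 0.09 (adjusted p = 0.0011) after rising by 0.75 ± 0.09 with A-MYB alone (adjusted p = 8.5e-07). For complex IV 3 of 17 were higher and 3 lower with Dox alone, 6 higher and 2 lower with A-MYB alone, 6 higher and 3 lower with Dox in A-MYB cells, and 6 higher and 1 lower with A-MYB in Dox cells. Surf1, which helps build the haem centre of the enzyme, rose by 0.86 ± 0.09 with Dox in A-MYB cells (adjusted p = 9.0e-09) and Cox10, which makes haem A's precursor, by 0.59 ± 0.07 (adjusted p = 2.1e-07). Coa5 fell by 0.45 ± 0.08 there (adjusted p = 5.0e-05). For complex V, Atpaf2, an F1 assembly chaperone, rose by 0.70 ± 0.08 (adjusted p = 4.1e-08). Of 5 factors for complexes II and III, 1 was higher with Dox alone, and 1 was higher and 1 lower with Dox in A-MYB cells.

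The citric acid cycle genes feed NADH and succinate into the chain. Of 16 tested 5 were lower with Dox alone, 2 lower and 3 higher with A-MYB alone, 9 lower with Dox in A-MYB cells and 8 lower with A-MYB in Dox cells. The shares lower were 31.2%, 12.5%, 56.2% and 50%, against 14.3%, 15.2%, 30.4% and 28.4% over all genes. With A-MYB alone 18.8% were higher, against 19.5% over all genes. Citrate synthase, Cs, fell by 0.48 ± 0.06 with Dox in A-MYB cells (adjusted p = 6.6e-08) and Idh3a by 0.47 ± 0.06 (adjusted p = 4.1e-07). Dld, a subunit shared by the pyruvate and oxoglutarate dehydrogenases, fell by 0.62 ± 0.07 there (adjusted p = 2.1e-08) after a rise of 0.35 ± 0.07 with A-MYB alone (adjusted p = 0.00023).

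Among 16 tested regulators of mitochondrial genes, 1 was higher and 1 lower with Dox alone and 2 higher and 2 lower with A-MYB alone. In each contrast with the other treatment present 8 were lower (50%) and 2 higher (12.5%). Calls over all genes rose between these contrasts too. The share lower was 14.3% with Dox alone and 15.2% with A-MYB alone. It was 30.4% with Dox in A-MYB cells and 28.4% with A-MYB in Dox cells, where 28.5% and 26.8% were higher. Gabpa had mean levels of 197.9 CPM in control cells, 236.3 CPM in Dox cells, 260.0 CPM in A-MYB cells and 169.0 CPM in Dox + A-MYB cells. It rose by 0.39 ± 0.06 with A-MYB alone (adjusted p = 2.6e-05), so it was higher in the single treatments and lower in the combination. Yy1 had the same order, with 84.5 CPM in control cells, 106.3 CPM in A-MYB cells and 66.4 CPM in Dox + A-MYB cells, and fell by 0.68 ± 0.07 with Dox in A-MYB cells (adjusted p = 1.4e-08). Pprc1, a coactivator of the PGC-1 family, fell by 0.43 ± 0.06 there (adjusted p = 3.2e-07), and Polg2, the accessory subunit of the mitochondrial DNA polymerase, rose by 1.20 ± 0.12 (adjusted p = 5.5e-09). The PGC-1 family did not move as one. Ppargc1a had the largest rise of the 16 in each of the 4 contrasts (3.64 to 4.60). Ppargc1b had the largest fall with Dox in A-MYB cells (-1.235). The levels of these 2 genes and whether they passed are not given here.

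In spermatocytes no start of an oxidative phosphorylation gene lay in a deposited H3K27ac peak. None of 69 members with a RefSeq start was covered in any of the 4 libraries. For 0 of 69 the upper limit of an exact binomial interval is a share of 5.21%. Over 17492 protein-coding genes the peaks covered 2.09% and 1.03% of starts in the wild-type libraries and 0.435% and 0.406% in the mutant libraries. The lists thus hold few starts of any gene, and they do not resolve the members' promoters.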

How the data were processed

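RNA-seq was measured in 8 ES cell libraries and H3K27ac ChIP-seq in 4 spermatocyte libraries; the 4 input libraries were not analysed here. The deposited ES files hold raw read counts per gene symbol without normalization, and their 5 special lines (reads in no gene or not unique) were kept out of the table and of library sizes: 7.28% to 9.43% of reads fell in no gene. Per the submitters' processing notes, the tools were bcl2fastq 2.20.0, HISAT2 2.1.0, HTSeq, Bowtie2 2.3.3.1 and MACS 1.4.2, with build mm10; roles and settings are not given in the sources used here. The deposited peak lists give, per the file headers, positions, tag counts, a score and a fold enrichment (ratio) per peak, called per library. Their positions were used here, and the fold only for a stricter alternative.

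Counts were scaled by TMM, filtered with filterByExpr and fitted with edgeR 4.0.16 (robust glmQLFit, all 8 libraries, 1 coefficient per group; R 4.3.3, limma 3.58.1), which left 4 residual degrees of freedom. Two-sided glmQLFTest p-values were adjusted by Benjamini-Hochberg over 14664 genes with a threshold of 0.05. The steps were tested on simulated data. The SE was computed as the size of the log2 fold change over the root of the F statistic. Levels are TMM-scaled CPM computed here. They are compared between groups within a gene, not between genes, because no transcript lengths were used. Every library had at least 26995317 gene counts, and replicates differed by more than sampling noise (chi-square per degree of freedom 5.41 to 13.7; biological coefficient of variation 0.0631). The labels number the replicates without saying that they were separate cultures, so p-values measure the spread between these libraries. DESeq2 1.42.0, other scalings, no filter, the replicate block and leaving out each library were alternatives. Figures were drawn with matplotlib 3.10.9. Starts and promoter windows came from RefSeq (GRCm38.p6, the same assembly as mm10). All 84 members matched by symbol, 69 with a start.

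The members and gene lists were chosen with earlier results of these data known. Named genes are, per contrast and complex, up to 3 with the largest change in each direction among those that passed without overlap between the libraries of the compared groups (the interaction: passed only), plus every restricted or duplicated isoform with its counterpart. From other lists up to 4 genes with the smallest p were taken. Atp5b, Atp5s, Ndufs5, Sdhd, Uqcrc1 and Uqcrc2 were named outside this rule, after their values were seen. So were Mybl1, Ppargc1a, Ppargc1b, the genes that overlap members and the count ratios between paralogues.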

Additional observations from a re-analysis of the deposited data

Results flagged for a closer look

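For 21 of the members named here the Dox effect differed with and without A-MYB by the test of that difference itself (edgeR interaction, adjusted p under 0.05, n = 2 libraries in each of 4 groups; log2 values). In complex I the difference was 0.53 for Ndufa13, 0.48 for Ndufb7, 0.47 for Ndufb11 and -0.36 for Ndufc2. In complex II it was -0.32 for Sdha. In complex III it was 0.48 for Uqcr10, 0.43 for Uqcr11, 0.29 for Uqcrq and -0.33 for Uqcrb. In complex IV it was 0.30 for Cox4i1, 0.27 for Cox6a1, 0.24 for Cox8a, -1.19 for Ndufa4l2, -0.79 for Cox4i2 and -0.41 for Cox5a. In complex V it was 0.74 for Atp5e, 0.53 for Atp5k, 0.44 for Atp5j2, -0.37 for Atp5g3, -0.27 for Atp5j and -0.22 for Atp5f1. Of these 21 calls 7 passed under every alternative run (Ndufa13, Ndufb11, Uqcr10, Cox4i1, Ndufa4l2, Cox5a and Atp5j2). Atp5e was not among them: its call was lost with no filter (adjusted p = 0.082) and without each control and each Dox replicate (adjusted p = 0.068 to 0.14). On total gene counts, where the median interaction over all genes was 0.16, Cox4i2 was no longer called (-0.63), and neither was Ndufc2 (-0.20), Uqcrb (-0.17), Sdha (-0.16), Atp5g3 (-0.20), Atp5j (-0.10) or Atp5f1 (-0.06).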

How the results depend on the processing

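Alternatives were DESeq2's size factors, total gene counts, no filter, DESeq2's Wald test, a replicate block and leaving out each library in turn. The count of members lower in the interaction, 9 in the report, was 5 with DESeq2's size factors, 5 with its Wald test and 2 on total gene counts. On total gene counts the other counts that moved were 38 higher and 10 lower for Dox with A-MYB and 28 higher and 10 lower for A-MYB with Dox. There were also 1 higher for A-MYB without Dox and 44 higher in the interaction. Calls over all genes under that scaling are not given here. Leaving out 1 library gave 0 to 1 higher and 22 to 55 lower for Dox without A-MYB, 3 to 20 and 20 to 36 for Dox with A-MYB, 26 to 61 lower for A-MYB without Dox, 0 to 11 and 19 to 37 for A-MYB with Dox, and 9 to 36 and 4 to 8 for the interaction.

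Named members whose sign changed on total gene counts were, for A-MYB with Dox, Cox4i1 (0.19), Cox6a1 (0.18), Cox6b1 (0.14), Cox6b2 (0.11), Cox7a2 (0.077), Cox7b (0.092) and Cox8a (0.018), and for Dox with A-MYB, Atp5g1 (0.10), Cox4i1 (0.15), Cox6b1 (0.067), Cox6b2 (0.033), Cox7a2 (0.064), Cox7a2l (0.028) and Ndufb5 (0.040). Cox4i1 for A-MYB with Dox was 0.011 with DESeq2's size factors and with its Wald test. Leaving out 1 library, A-MYB with Dox ran from -0.12 to 0.096 for Cox4i1, from -0.11 to 0.060 for Cox6a1 and from -0.13 to 0.011 for Cox6b1; Dox with A-MYB ran from -0.18 to 0.033 for Cox4i1 and from -0.37 to 0.027 for Cox6b2; and A-MYB without Dox ran from -0.060 to 0.073 for Atp5g3. All but Cox8a (lower) and Cox7a2l and Ndufb5 (lower) had not passed in the report. The causes were not tested beyond the change of scale or samples itself.

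The labels number the replicates but do not tie numbers across groups. The deviations of same-numbered libraries correlated at -0.027 to 0.084, so they shared no large shift. With 2 libraries a group this cannot show whether same-numbered libraries were handled together. With a replicate block the counts higher and lower were 1 and 44, 11 and 30, 0 and 51, 3 and 27, and 25 and 10 in the order of contrasts above, and none of the 132 named values changed its call. Precision was limited by the spread between 2 libraries a group (within-group SD of 0.069 for the members' median log2 level in a library).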
